A study of Mus musculus with 8 samples.

Results

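The ionotropic glutamate receptors described here are the AMPA subunit genes Gria1 to Gria4, the NMDA subunit genes Grin1, Grin2a and Grin2b, and the kainate subunit genes Grik2, Grik3 and Grik5. They were taken by gene symbol, and all 10 were found among 15035 genes. RNA was sequenced from auditory nerves dissected at postnatal day 21 from 4 wild-type mice (libraries 1 to 4) and from 4 mice whose genotype label is Mef2c heterozygote, or +/- (libraries 5 to 8). The labels give no strain, sex, litter or description of the Mef2c allele, and each library holds the nerves of 2 cochleas of 1 mouse. Mef2c encodes a MADS-box transcription factor, and the comparison asks which transcripts differ when 1 copy is lost.

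Ionotropic glutamate receptors are cation channels made of 4 subunits that open when glutamate binds. At the synapse between the inner hair cell and the spiral ganglion neuron, whose axons form the auditory nerve, fast transmission is carried by AMPA receptors on the nerve terminal. NMDA receptors need the GluN1 subunit, encoded by Grin1, together with GluN2 subunits, and kainate receptors pair the principal subunits GluK1 to GluK3 with the high-affinity subunits GluK4 and GluK5. AMPA and kainate subunits are also made by glial cells, among them oligodendrocyte precursors and astrocytes.

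The AMPA subunits differ in calcium permeability at one codon of the pore loop, the Q/R site, which RNA editing by ADAR2 (encoded by Adarb1) recodes in Gria2 transcripts. The 60 coding bases around that codon are shown because the share of Gria2 among AMPA transcripts is one of the measures below. They come from GENCODE M21 transcripts on GRCm38, are written 5′ to 3′ in the sense of the gene, and have the Q/R site codon in capitals.
Gria1: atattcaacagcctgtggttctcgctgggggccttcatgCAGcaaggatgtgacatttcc
Gria2: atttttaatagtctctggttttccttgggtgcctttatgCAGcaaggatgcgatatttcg
Gria3: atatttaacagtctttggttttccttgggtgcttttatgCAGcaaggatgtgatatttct
Gria4: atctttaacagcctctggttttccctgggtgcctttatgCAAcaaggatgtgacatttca
The windows lie in coding exon sequence at chr11:57243055-57243114 on the plus strand for Gria1 (exon 11), chr3:80706893-80706952 on the minus strand for Gria2 (exon 11), chrX:41610226-41610285 on the plus strand for Gria3 (exon 11) and chr9:4464119-4464178 on the minus strand for Gria4 (exon 12). The genome carries the glutamine codon in all 4 genes, as CAG in Gria1, Gria2 and Gria3 and as CAA in Gria4. The deposited values are per gene, so edited and unedited Gria2 transcripts were not told apart. The 4 coding sequences are alike enough to ask whether reads could be shared between them. Gria2 and Gria4 had 72.9% identical coding bases and the longest identical run among the members' coding sequences, at 41 bases. Gria1 shared at most 29 identical bases with any other member.

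Libraries held an estimated 13363262 to 21507345 reads, and 3 reads corresponded to 2.37 to 3.89 normalized counts, the unit in which values were deposited (reads divided by a size factor for each library). Mef2c itself was 462 ± 50.4 normalized counts in wild type and 668 ± 66.8 in the heterozygote-labelled libraries (SD, n = 4 each). This direction is opposite to the loss of 1 copy, so every direction below is between libraries as labelled. The log2 fold change was 0.53, with an adjusted p of 0.186 in limma-trend and an FDR of 0.0162 in the authors' deposited table. Values per gene do not show which exons were read and the allele is not described, so the genotype itself was not tested. Spiral ganglion neuron markers were present, with all 10 of 10 tested and a summed level of 98504.9 to 148396 normalized counts in wild type and 122053 to 154082 in the heterozygote-labelled libraries. All 9 hair cell markers were also detected, with summed levels of 14939.7 to 20582.1 and 13045.1 to 16705.7. Most of that sum was Pvalb alone, at 10828 to 17180 and 7166.8 to 11614. Log2 fold changes of the 9 were above 0 in 5 and below 0 in 4, with a median of 0.18. The inhibitory neuron marker Gad1 had a log2 fold change of 1.26 (adjusted p 0.266, limma-trend).

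Levels of different genes were compared per kilobase of the longest annotated transcript. Grin1 was the most abundant member, at 709 ± 130 normalized counts per kilobase in wild type and 770 ± 98.4 in the heterozygote-labelled libraries (SD, n = 4 each). Its mean over the 8 libraries was above that of 89.4% of all tested genes on the same scale. Grik5 followed at 329 ± 53.0 and 305 ± 21.3 normalized counts per kilobase (SD, n = 4 each). Gria4 (211 ± 64.2 and 243 ± 29.9) and Gria3 (199.5 ± 52.0 and 228 ± 20.7) came next on this scale (SD, n = 4 each). These 4 genes, the obligatory NMDA subunit, a high-affinity kainate subunit and 2 AMPA subunits, were the high-level members.

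Gria2 (59.2 ± 11.4 and 58.5 ± 15.6 normalized counts per kilobase) and Gria1 (59.6 ± 18.5 and 29.0 ± 10.2) lay below them (SD, n = 4 each). Grik3 was at 21.1 ± 2.41 and 23.5 ± 5.55, and Grik2 at 9.20 ± 2.76 and 8.15 ± 2.22 normalized counts per kilobase (SD, n = 4 each). Grin2b and Grin2a were the lowest, with means of 0.954 and 0.519 over the 8 libraries. In this order the ranges over libraries did not overlap between Grin1 and Grik5, Gria3 and Gria2, Grik3 and Grik2, or Grik2 and Grin2b. Gria4 and Gria3 overlapped in range, yet Gria4 was the higher in 8 of 8 libraries. Grik5 was above Gria4 in 7 of 8, and Gria2 above Gria1 in 6 of 8. The longest transcript is itself a choice: the annotated Gria2 transcript has 10371 bases against 5441 for Gria4, although their coding sequences have 2649 and 2706. Per kilobase of coding sequence Gria4 (456) passed Grik5 (438), and no other pair changed places.

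**Figure D1:**
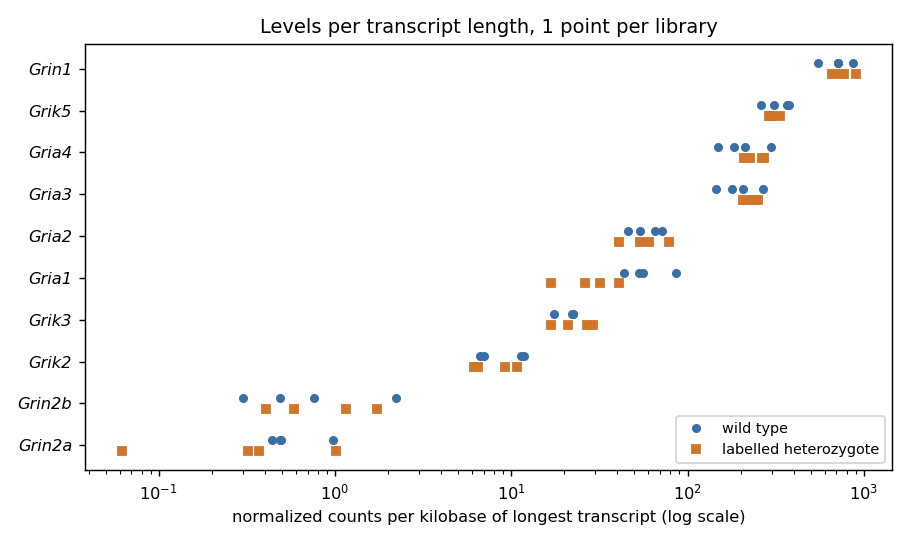
Normalized counts per kilobase of the longest annotated transcript for the 10 subunit genes, on a log axis, with 1 point for each of the 4 wild-type (circles) and 4 heterozygote-labelled libraries (squares). Grin1 is the highest and Grin2a the lowest, and Gria1 is the row in which the genotypes do not overlap.

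No member passed a Benjamini-Hochberg adjusted p of 0.05 between genotypes in limma-trend, a linear model fitted over all 14870 genes with enough signal. Of the 10 members 9 entered that test. Grin2a did not reach 10 normalized counts in 4 libraries. At an unadjusted p under 0.05 the count was 1 member, Gria1, and in the authors' deposited table the FDR was under 0.05 for the same gene alone. Among all tested genes 0.0807% had an adjusted p under 0.05, and 14.1% an unadjusted p under 0.05, made up of 7.34% lower and 6.72% higher in the heterozygote-labelled libraries. The FDR was under 0.05 for 1.61% of genes in the authors' deposited table. Fold changes of the 9 tested members were above 0 in 5 and below 0 in 4, where 47.7% of all tested genes were below 0, with a median log2 value of 0.13 against 0.02 over all tested genes.

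**Figure D2:**
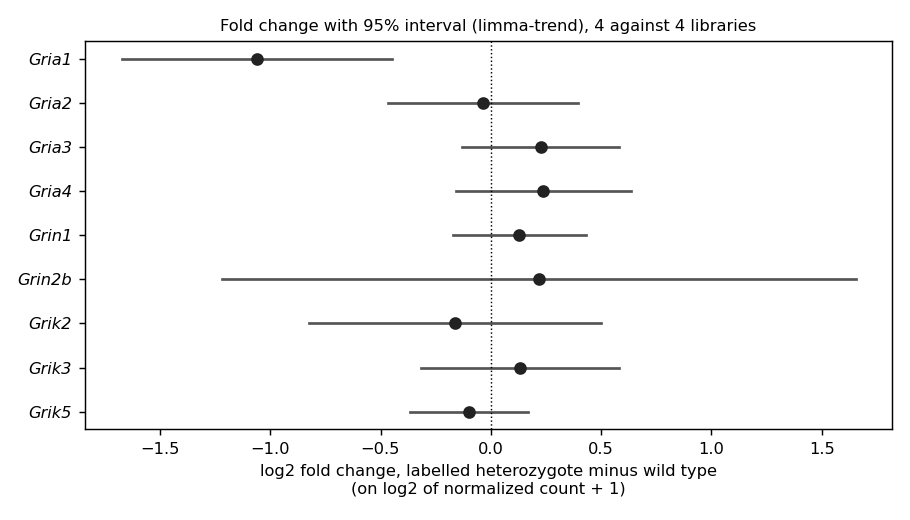
Log2 fold change between heterozygote-labelled libraries and wild type for the 9 tested members, with its 95% interval from limma-trend (4 against 4 libraries). The interval lies below 0 for Gria1 and spans 0 for the other 8, and it is the widest for Grin2b, from -1.22 to 1.65.

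Gria1, which encodes the AMPA subunit GluA1, was the member with the largest difference. Wild-type libraries 1 to 4 had 478.9, 308.3, 292.4 and 242.8 normalized counts. The heterozygote-labelled libraries had 93.4, 176.9, 145.1 and 227.8, in the order 5 to 8. All 4 lay below every wild-type library, with library 8 the closest to wild-type library 4. Non-overlap of this kind, in either direction, was found in 7.26% of tested genes, 3.86% lower and 3.4% higher in the heterozygote-labelled libraries. The means were 331 ± 103 and 161 ± 56.4 normalized counts (SD, n = 4 each). On the scale of log2(normalized count + 1) the fold change was -1.06, with a 95% interval from -1.67 to -0.45, and 1.14% of tested genes had a value of -1 or less. Its limma-trend unadjusted p was 0.00273 and its adjusted p 0.220, so it did not pass among all genes tested. The authors' deposited table gave a ratio of 0.488 with an FDR of 0.0277.

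The size of the Gria1 difference leaned on wild-type library 1, the highest, and library 5, the lowest. These are also the 2 libraries with little Xist, a transcript of the inactive X chromosome (at most 12 normalized counts, against at least 5175 in the other 6). Without both, the log2 fold change was -0.63, with a limma-trend unadjusted p of 0.0119 and an adjusted p of 0.262. The 3 wild-type libraries that remained (242.8 to 308.3 normalized counts) were still all above the 3 heterozygote-labelled ones (145.1 to 227.8). Within the low-Xist pair there is 1 library of each genotype, 478.9 in wild type and 93.4 in the library labelled heterozygote, which allows no test. Wild-type library 1 also had the fewest estimated reads (13363262). Its Pearson correlations with the other libraries, on log2 values of all genes, were 0.931 to 0.944. All pairs without it reached at least 0.952.

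For the other AMPA subunits the 95% interval of the fold change spanned 0. Gria2, for GluA2, had 558.0, 478.7, 741.6 and 676.4 normalized counts in wild type and 556.1, 813.8, 426.0 and 630.1 in the heterozygote-labelled libraries. Both the highest and the lowest value were in heterozygote-labelled libraries (6 and 7), and the groups overlapped throughout. Its log2 fold change was -0.04, with a 95% interval from -0.46 to 0.39 and an adjusted p of 0.947 in limma-trend.

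Gria3, for GluA3, had 755.3, 1072.4, 1395.1 and 931.3 normalized counts in wild type and 1254.6, 1070.8, 1126.2 and 1301.4 in the heterozygote-labelled libraries. Gria4, for GluA4, had 812.4, 1158.4, 1628.9 and 998.9 in wild type and 1431.6, 1141.4, 1225.1 and 1481.4 in the heterozygote-labelled libraries. In both genes wild-type library 1 was the lowest and wild-type library 3 the highest of the 8, and the wild-type range enclosed all 4 heterozygote-labelled libraries. The log2 fold change was 0.23 for Gria3 (95% interval -0.13 to 0.58) and 0.24 for Gria4 (-0.16 to 0.64), with adjusted p of 0.531 and 0.552 in limma-trend. Wild-type libraries 1 and 3 decided much of these values, in opposite directions. Without library 3 the log2 fold changes were 0.38 and 0.42, with adjusted p of 0.126 and 0.114 in limma-trend. Without wild-type library 1 they were 0.08 and 0.09, and without the 2 libraries low in Xist 0.06 and 0.05.

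**Figure D3:**
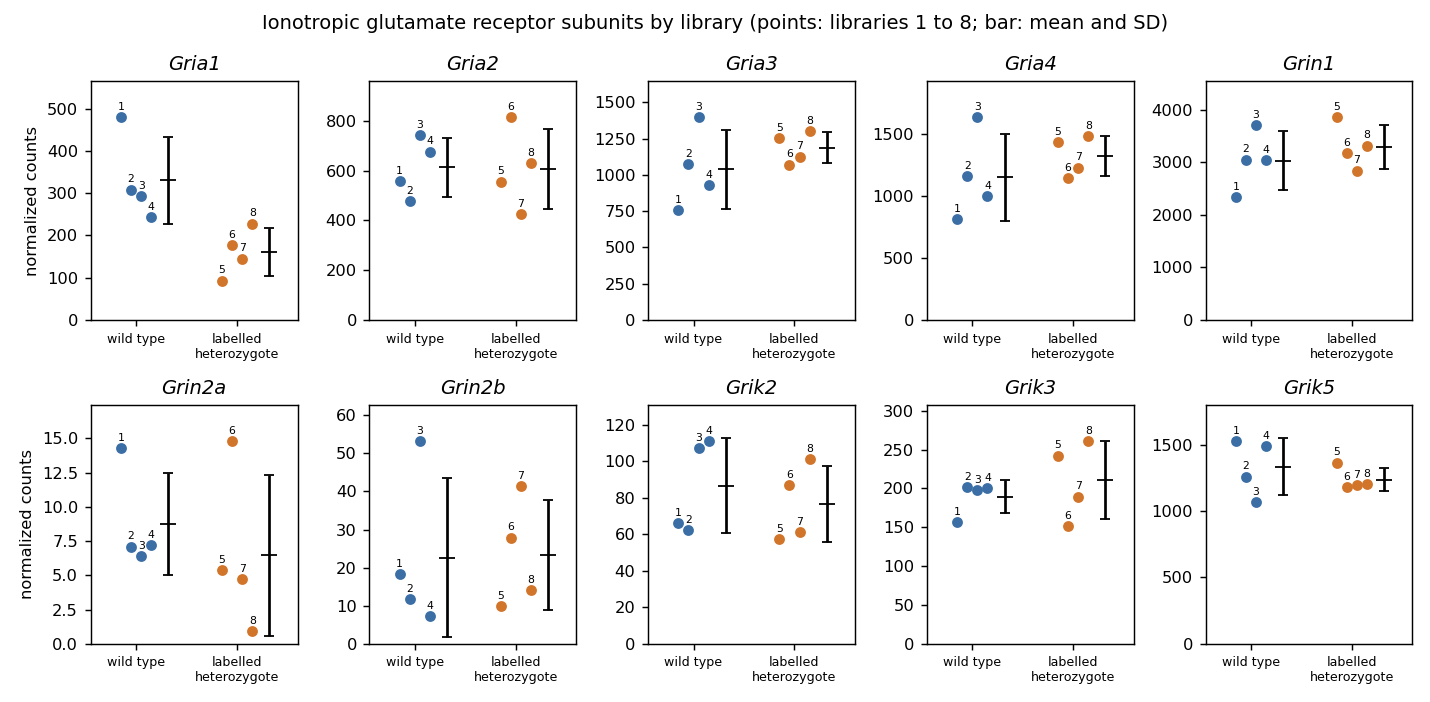
Normalized counts of each of the 10 subunit genes in the 4 wild-type libraries (1 to 4) and the 4 heterozygote-labelled libraries (5 to 8), with the mean and SD of each group as a black bar and each axis starting at 0. Gria1 runs from 242.8 to 478.9 in wild type and from 93.4 to 227.8 in the heterozygote-labelled libraries, and in the other 9 genes the groups overlap.

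Beside Gria1, oligodendrocyte markers were lower in the heterozygote-labelled libraries. The nerve contains a peripheral segment myelinated by Schwann cells and a central segment with oligodendrocytes and astrocytes. Of 10 oligodendrocyte markers 4 fell past an adjusted p of 0.05 in limma-trend and 0 rose. Groups did not overlap in 9 of the 10, all lower in the heterozygote-labelled libraries. Over all tested genes 0.0807% had an adjusted p under 0.05, and 3.86% were lower with non-overlapping groups. At an unadjusted p under 0.05, 7.34% of all tested genes were lower and 6.72% higher (limma-trend). No gene at all was called with pan-neuronal scaling, or when any of libraries 2, 4 and 8 was left out, so these 4 calls are lost there. The summed level of the 10 markers was 207449 to 275527 normalized counts in wild type and 107826 to 141160 in the heterozygote-labelled libraries. Of 8 oligodendrocyte precursor markers 0 passed. The unadjusted p was under 0.05 for 4 with lower values, among them Olig2 (log2 fold change -1.40), and for 1 with higher values, and the summed levels overlapped (8287.3 to 9795.6 and 6920.3 to 8997.8). Most of that sum was Sox10 and Pdgfra, with log2 fold changes of 0.17 and -0.06, so it says little about the lower genes. Of 8 astrocyte markers 0 passed, 3 had an unadjusted p under 0.05, all lower, among them Gfap (log2 fold change -0.99), and the summed levels were 44152.7 to 65687.1 and 36939.9 to 59814.3. The largest part of the astrocyte sum was S100b, with a log2 fold change of 0.05. None of these markers was at 0 in any library. Their part in the Gria1 difference was not tested, and in bulk RNA fewer cells of a type and less RNA per cell cannot be told apart.

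Library by library, Gria1 was highest in wild-type library 1 and lowest in library 5, and so were the medians of all 3 central glia lists. The macrophage and microglia list had its extremes in the same libraries (median deviations of 0.30 and -0.23 log2 units), so this was not particular to central glia. The Gria1 level relative to the oligodendrocyte list (log2 of Gria1 minus the mean log2 of the 10 markers) was -3.39 ± 0.29 in wild type and -3.51 ± 0.45 in the heterozygote-labelled libraries, with overlapping groups (SD, n = 4 each). Relative to the precursor list it was -0.85 ± 0.33 and -1.22 ± 0.43, and relative to the astrocyte list -3.40 ± 0.28 and -4.05 ± 0.39, again overlapping (SD, n = 4 each). The astrocyte overlap came from library 8 alone (-3.48, against -3.66 in wild-type library 4). Relative to the spiral ganglion neuron list it was -3.15 ± 0.51 and -4.28 ± 0.59, and every library labelled heterozygote was below every wild-type library (SD, n = 4 each). The same held for pan-neuronal, Schwann cell, satellite glia, macrophage and inhibitory neuron markers. For pan-neuronal markers the gap was close to a tie, with -4.05 in library 8 against -4.04 in wild-type library 3. For Schwann cell markers it was also narrow, with -4.63 in library 6 against -4.56 in wild-type library 4. Groups also overlapped relative to Gria2 and to the hair cell list (-0.77 ± 0.63 and -1.85 ± 0.76, SD, n = 4 each), so overlap was not particular to central glia. Of the 10 pan-neuronal and 10 spiral ganglion neuron markers 0 passed in limma-trend, 1 had an unadjusted p under 0.05, and the median log2 fold changes were 0.03 and 0.08.

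**Figure D4:**
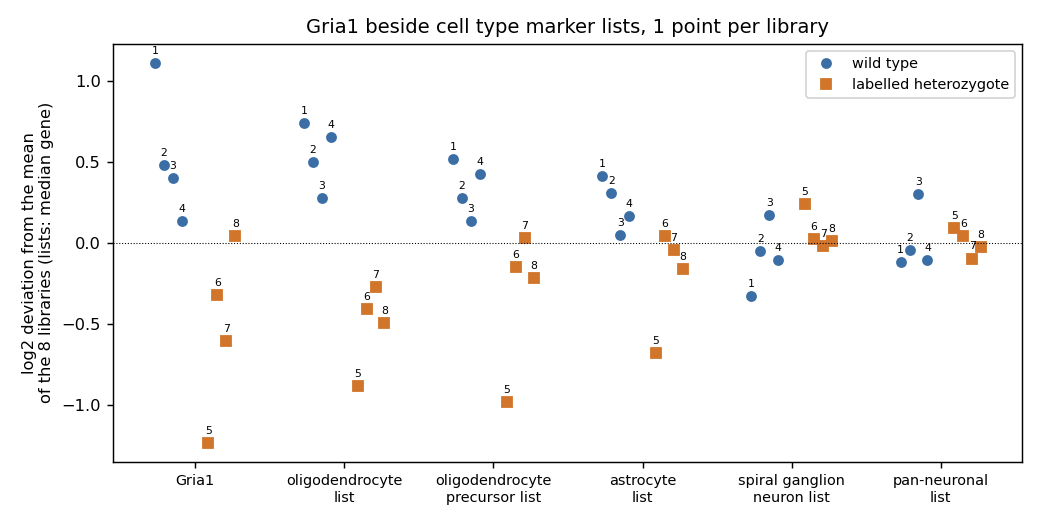
Deviation of Gria1 from its mean over the 8 libraries, on the log2 scale, beside the median deviation of the genes in 5 marker lists, with 1 point per library labelled by its number. For Gria1 and the oligodendrocyte, precursor and astrocyte lists the genotypes do not overlap, and library 5 is the lowest (-1.24 for Gria1, -0.89 for the oligodendrocyte list), whereas in both neuronal lists they overlap.

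The NMDA subunits were dominated by Grin1. It had 2339.9, 3047.8, 3702.4 and 3032.9 normalized counts in wild type and 3848.3, 3166.7, 2839.4 and 3315.5 in the heterozygote-labelled libraries. Wild-type library 1 was again the lowest and the groups overlapped. Its log2 fold change was 0.13, with a 95% interval from -0.17 to 0.43 and an adjusted p of 0.675 in limma-trend, and it was -0.07 without the 2 libraries low in Xist.

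Grin2b, for GluN2B, ranged from 7.2 to 53.2 normalized counts in wild type and from 9.8 to 41.5 in the heterozygote-labelled libraries. These values rest on few reads, and the spread between libraries was wide enough that the 95% interval of the log2 fold change, 0.22, ran from -1.22 to 1.65 (limma-trend adjusted p 0.896). Grin2a, for GluN2A, had 14.3, 7.1, 6.4 and 7.2 normalized counts in wild type and 5.4, 14.8, 4.7 and 0.9 in the heterozygote-labelled libraries, the last below the level of 3 reads. The interval of Grin2b thus holds differences of 2-fold either way, and Grin2a could not be tested. Per kilobase the GluN2 genes Grin2c (31.4 ± 3.83 and 29.1 ± 8.40 normalized counts) and Grin2d (25.6 ± 7.89 and 31.7 ± 4.26) lay above both (SD, n = 4 each).

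Among the kainate subunits Grik5, for the high-affinity subunit GluK5, had 1527.5, 1260.1, 1067.0 and 1491.7 normalized counts in wild type and 1366.5, 1184.1, 1195.0 and 1203.9 in the heterozygote-labelled libraries. Wild-type library 1 was the highest of the 8 and wild-type library 3 the lowest, where Gria3 and Gria4 had them the other way round. The log2 fold change was -0.10, with the narrowest 95% interval of the members, -0.37 to 0.17, and an adjusted p of 0.723 in limma-trend.

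Grik3, for GluK3, ranged from 157.0 to 201.9 normalized counts in wild type and from 151.6 to 260.7 in the heterozygote-labelled libraries. Grik2, for GluK2, ranged from 62.3 to 111.1 and from 57.6 to 101.3. Both overlapped between genotypes, with log2 fold changes of 0.13 (95% interval -0.32 to 0.58) and -0.16 (-0.82 to 0.50) and limma-trend adjusted p of 0.785 and 0.821.

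Composition within the families was then read from the values per kilobase, with no test. Gria4 made up 39.4% ± 3.78 of AMPA transcripts in wild type and 43.4% ± 2.50 in the heterozygote-labelled libraries, and Gria3 37.4% ± 2.76 and 40.9% ± 1.59 (SD, n = 4 each). Gria2 held 11.4% ± 2.19 and 10.5% ± 3.02 (SD, n = 4 each), with the lowest share in library 7 (8.07%) and the highest in library 6 (14.9%), so its share did not separate the genotypes. Gria1 held 19.9%, 10.7%, 7.62% and 9.29% in wild-type libraries 1 to 4 and 2.93%, 6.07%, 5.14% and 6.58% in libraries 5 to 8. Gria1 was the one AMPA subunit whose share did not overlap.

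**Figure D5:**
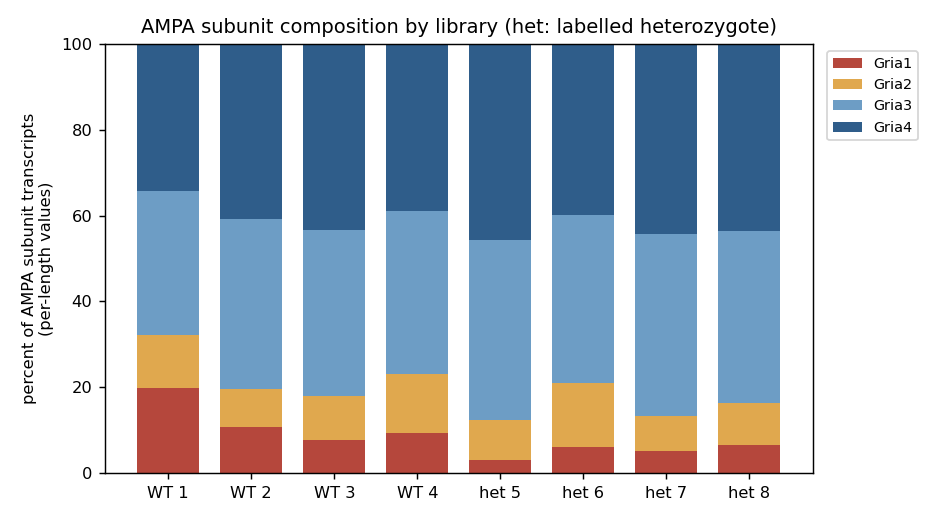
Share of each AMPA subunit gene in the summed AMPA values per kilobase of longest transcript, stacked to 100% for each of the 8 libraries. Gria3 and Gria4 fill most of each bar, and the Gria1 segment is between 7.62% and 19.9% in wild type and between 2.93% and 6.58% in the heterozygote-labelled libraries.

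Per kilobase of coding sequence the Gria2 share was 20.1% ± 3.50 and 18.7% ± 4.80, again with overlapping groups (SD, n = 4 each). Per kilobase of longest transcript, Grik5 made up 91.4% ± 2.11 of the 3 kainate members in wild type (SD, n = 4). In the heterozygote-labelled libraries it made up 90.6% ± 1.65 (SD, n = 4). By coding length its share was 81.6% ± 4.05 and 80.2% ± 3.03 (SD, n = 4 each). Grik1 and Grik4 were not part of these sums. The log2 ratio of summed AMPA to summed NMDA values per kilobase of longest transcript was -0.43 ± 0.12 and -0.46 ± 0.15. The groups overlapped (SD, n = 4 each). Its sign depended on the length used, since per kilobase of coding sequence it was 0.14 ± 0.11 and 0.09 ± 0.14. Per kilobase of longest transcript, the share of Grin2a among Grin2a and Grin2b ran from 16.5% to 62.2% in wild type. It ran from 9.50% to 47.5% in the heterozygote-labelled libraries, on counts too small to order Grin2a and Grin2b.

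The other genes of the glutamate receptor pathway were read from lists of subunits, auxiliary proteins, scaffolds, editing enzymes and metabotropic receptors, 62 genes of which 54 were tested. None passed an adjusted p of 0.05 in limma-trend, and 6 had an unadjusted p under 0.05 (3 higher, 3 lower), or about the share of all genes. The median log2 fold change of the 54 was 0.11.

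The 8 other ionotropic subunits had no member with an unadjusted p under 0.05. Grik4, for the high-affinity kainate subunit GluK4, was the highest per kilobase at 42.4 ± 6.85 in wild type and 50.1 ± 6.80 in the heterozygote-labelled libraries (SD, n = 4 each). The largest log2 fold changes were those of Grik1 (-0.51, limma-trend adjusted p 0.583) and Grin2d (0.35, 0.515).

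Of 15 tested auxiliary subunits and assembly proteins 2 had an unadjusted p under 0.05, both lower, against 7.34% of all tested genes (limma-trend). Cacng7, an AMPA receptor regulatory protein of the TARP family, was the highest per kilobase, with 2047.9 to 2776.5 normalized counts in wild type and 2401.2 to 2964.3 in the heterozygote-labelled libraries. Abhd6, a lipase that limits AMPA receptor surface delivery, was second, with a log2 fold change of -0.03. Gsg1l, an AMPA auxiliary subunit, had 101.2, 33.9, 30.2 and 47.1 normalized counts in wild type and 9.8, 39.2, 23.6 and 9.4 in the heterozygote-labelled libraries. Its groups overlapped, with a log2 fold change of -1.40 and an adjusted p of 0.308 in limma-trend. Frrs1l, which acts in AMPA receptor assembly, had a log2 fold change of 0.63 with an adjusted p of 0.418.

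Of 23 tested scaffolds and partners, 18 had a log2 fold change above 0, 3 had an unadjusted p under 0.05, all higher, and the median was 0.17. Among all tested genes 47.7% were below 0, and 6.72% were higher at an unadjusted p under 0.05 (limma-trend). The 3 were the Shank genes, which encode the scaffolds that link receptor complexes to the actin cytoskeleton. Shank1 had 536.0, 843.0, 1446.4 and 892.6 normalized counts in wild type and 1525.1, 1358.4, 1241.1 and 1633.3 in the heterozygote-labelled libraries. Wild-type library 3 was the one wild-type library within the range of the other group. The log2 fold change was 0.71, with a 95% interval from 0.20 to 1.22 and an adjusted p of 0.266 in limma-trend, and the groups overlapped. Without wild-type library 3 it was 0.95 with an adjusted p of 0.0279, in a fit that called 221 of all genes against 12 with all libraries. Leaving out wild-type library 1 gave 0.48 (adjusted p 0.322, limma-trend), and leaving out both low-Xist libraries gave 0.45 (adjusted p 0.355). Shank2 had a log2 fold change of 0.68 (adjusted p 0.333). Nsf, the ATPase that recycles SNARE proteins and binds GluA2, and Pick1, a PDZ protein that binds GluA2, were the highest per kilobase, with log2 fold changes of 0.21 and -0.18 and limma-trend adjusted p of 0.541 and 0.470.

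Among the editing enzymes Adarb1 had 3017.3 to 6818.0 normalized counts in wild type and 4493.3 to 7225.5 in the heterozygote-labelled libraries, with a log2 fold change of 0.18 and an adjusted p of 0.734 in limma-trend. Adar had 0.28 with 0.519. Adarb2, for a family member without known editing activity, had -0.81 with 0.386.

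Of 5 tested metabotropic receptors, Grm7 and Grm8 were the highest per kilobase, with log2 fold changes of -0.10 and 0.26 and limma-trend adjusted p of 0.806 and 0.633. Grm3 had a log2 fold change of -0.67 (adjusted p 0.521, limma-trend).

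The genes most like the leading member of each family were taken as the 3 tested genes with the smallest root mean square difference in log2 values, each centred on its mean, over the 8 libraries. For Gria4 the nearest was Gria3, at 0.05 log2 units, followed by Mbnl2 and St8sia1, both at 0.06. The median over all tested genes was 0.39. For Grin1 they were Mapk8ip2, Atcay and Ttc19, at 0.04, 0.04 and 0.05 against a median of 0.32. For Grik5 they were Stk16, Srsf2 and Ubac2, at 0.05, 0.05 and 0.06 against a median of 0.30. No other member was among the nearest genes of the 3.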

How the data were processed

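The members, gene lists and tests were chosen with earlier results of these data known. RNA with an integrity number under 7 was left out, and 50 ng went into a directional poly(A) library, per the labels' protocols. Per library, the authors deposited a signal value for each gene, which from its spacing is a read number scaled by one factor per library. STAR, Partek and DESeq2 and the build mm10 are named in the submitters' processing notes. The counting method and its use of strand are not given in the sources used here. The authors' deposited p-values and FDR, their ratio and its log2 value are quoted as theirs, and their signed fold change, a score per the file headers, was not used. From the step between low values, 89.3% to 92.3% of values under 1000 came out as whole reads (0.06 tolerance), too few for a count model.

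Genes that reached 10 normalized counts in 4 or more libraries entered the test on log2(value + 1), which understates changes of low genes, by limma-trend without covariates, with Benjamini-Hochberg adjustment over all genes. On simulated data of 14870 genes the fit recovered 67% of genes changed 2-fold and 80% of those changed 4-fold, and also called 6 unchanged genes. The simulated noise was independent between genes, without effects shared by a library, so these shares need not hold for the real libraries. Transcript and coding lengths came from GENCODE M21 by symbol (97.6% of genes). Every member was named. From each partner list the 2 genes highest per kilobase, the 2 with the largest change and any past the threshold were named, and the 3 genes nearest to the leading member of each family; some genes of these lists are not reported here. Alternatives were pseudocounts of 0.1 and 10, no filter, a filter of 50, quantile, upper-quartile and pan-neuronal scaling, a loess correction for transcript length, low Xist as a covariate, leaving out the libraries low in Xist, and leaving out each library in turn. R 4.3.3, limma 3.58.1 and Python 3.11.15 were used.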

Additional observations from a re-analysis of the deposited data

Results flagged for a closer look

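In 4 of 74 groups of 4 libraries checked, 1 library stood far from the other 3, and chance gives about 3.7. Grik3 in wild type had a gap ratio of 0.913, because library 1 was low at 157.0 normalized counts against 198.0 to 201.9. Grin2a in wild type had 0.899, with library 1 high at 14.3 against 6.4 to 7.2. Grik5 in the heterozygote-labelled libraries had 0.891, with library 5 high at 1366.5 against 1184.1 to 1203.9. Grin2c in wild type had 0.872, with library 3 high at 181.5 against 142.5 to 147.5.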

How the results depend on the processing

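No paired analysis was possible because the genotypes share no replicate numbers. The count of members past an adjusted p of 0.05 was 0 in all 18 alternatives. For Gria1 the log2 fold change stayed below 0 in all 18, from -1.25 to -0.63, with limma-trend adjusted p of 0.0798 to 0.456. The count of partner genes was 0 in 17 and 1 (Shank1) without wild-type library 3, so leaving out a library gave 0 to 1. The count over all genes, 12, was 7 with quantile normalization, 0 with pan-neuronal scaling and 27 with the length correction, and 0 to 221 when a library was left out (221 with wild-type library 3 left out, 0 with either of wild-type 2 and 4 or with library 8 left out). The causes were not tested.

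Some small log2 fold changes, none of them called, changed sign. With the length correction Grin2b was at -0.16, Grik3 at -0.10 and Abhd6 at 0.028. Without the 2 libraries low in Xist Grin1 was at -0.066, Grik3 at -0.033 and Adarb1 at -0.18. Leaving out single libraries gave Gria2 -0.19 to 0.12, Grin2b -0.16 to 0.74, Abhd6 -0.083 to 0.036, Adarb1 -0.081 to 0.31 and Grm7 -0.21 to 0.018. By coding length Grin1 made up 38.5% of the summed values per kilobase of the 10 members, against 45.1% by transcript length. Depth limits Grin2a and Grin2b most among the members.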

Other observations

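Cacng4, for an AMPA receptor regulatory protein of the TARP family, falls outside the rule for named genes and was chosen after its values were seen. It had 739.7, 656.1, 594.0 and 585.8 normalized counts in wild type and 496.4, 569.0, 517.4 and 487.6 in the heterozygote-labelled libraries, so the groups did not overlap. Its log2 fold change was -0.31 with a limma-trend adjusted p of 0.301. With Gria1 and Gsg1l it is one of the glutamate receptor genes that were lower in the heterozygote-labelled libraries at an unadjusted p under 0.05.

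The 3 genes nearest to Gria1 over the 8 libraries, also looked up after its values were seen, were Zpbp, Fbxl22 and Zfp114, at root mean square differences of 0.16, 0.20 and 0.23 log2 units against a median of 0.72 over all tested genes. Because they were picked for closeness to the Gria1 profile, their lower means in the heterozygote-labelled libraries follow from the choice. These means went from 40.0 to 22.4, 44.7 to 23.3 and 62.7 to 37.7 normalized counts.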
